A study of Mus musculus with 12 samples.

Results

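The genes described here encode the parts of the mitochondrial respiratory chain and ATP synthase that are made from nuclear DNA. They were taken by name: gene symbols that start with Nduf, Uqcr or Atp5, or with Cox4 to Cox8 followed by a letter, and Sdha, Sdhb, Sdhc, Sdhd and Cyc1. This gave 93 of the 23479 genes measured, and 87 of the 93 had values of 10 or more in 3 or more of the 12 libraries and were tested. By role, 74 of 75 structural subunits, 10 of 10 assembly or coupling factors and 3 of 8 tissue isoforms were tested. By complex, the tested genes numbered 43 for complex I, 4 for complex II, 9 for complex III, 15 for complex IV and 16 for ATP synthase, also called complex V, with Ndufa4 placed in complex IV and the assembly factor Atp5sl in complex I by their known roles. Of the 6 genes not tested, Ndufs5 and the testis isoform gene Cox8c were at 0 in every library. Cox6b2, Cox7b2, Cox8b and Ndufa4l2 had values between 0 and 15.2.

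RNA-seq of total RNA gave 12 libraries. They came from cultured cells of 1 B cell lymphoma of an Eµ-Myc;Eµ-rtTA mouse of strain C57BL/6, grown with IL-7. These transgenes use the Eµ immunoglobulin heavy chain enhancer, so every group carried the Myc transgene that drives the tumour. Vector cells had been given an empty retrovirus with puromycin resistance, and TFEB cells had received a retrovirus with TFEB changed from Ser-211 to Ala and fused to ER-T2, a form of the estrogen receptor's hormone-binding part. TFEB activates genes of lysosomes and autophagy, and 4-hydroxytamoxifen (4-OHT) is the ligand that activates ER-T2 fusions. Treatment with vehicle or 4-OHT lasted 4 days in both lines and made 4 groups of 3 libraries: vector cells in vehicle, vector cells in 4-OHT, TFEB cells in vehicle and TFEB cells in 4-OHT. The labels' protocols give the dose as 250 nM, whereas the design text attaches ng/mL to that figure, so the dose is not settled. Whether replicates were separate cultures or transductions is not stated in the labels, so the p-values reflect only how far these libraries spread, which may be technical.

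In the respiratory chain, complexes I and II pass electrons from NADH and succinate to coenzyme Q, complex III passes them on to cytochrome c, and complex IV (cytochrome c oxidase) hands them to oxygen. Complexes I, III and IV pump protons across the inner mitochondrial membrane, and ATP synthase uses the returning protons to make ATP. Catalytic cores are partly encoded by mitochondrial DNA, and those subunits were not analysed here. Several subunits of complex IV exist as pairs, with a ubiquitous form and a form known from heart, muscle or lung, and ATP synthase subunit c is encoded by 3 genes that give the same mature protein.

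The authors' values are normalized counts, the reads of a library divided by its size factor, and the libraries held 11849029 to 22109283 reads. Tfeb, which checks the labels, had 195 to 255 in the 6 vector libraries, 1476 to 1955 in TFEB cells in vehicle and 581 to 711 in TFEB cells in 4-OHT. Genes with at least 1 read numbered 11390.0 to 19250.0 per library. The library with most genes of its group was library 2 of vector cells in 4-OHT (19057), library 1 of TFEB cells in vehicle (16471) and library 2 of TFEB cells in 4-OHT (19250.0). These 3, called the gene-rich libraries below, were left out together as 1 alternative, while TFEB 4-OHT library 3 (16563) was kept. The 9 B lineage markers examined were present in every library and summed to 63789.7 to 66245 in TFEB cells in 4-OHT, against 80880.4 to 93125 in the other groups. By group mean, Cd79a, Cd24a and Ptprc were higher and the other 6 lower in TFEB cells in 4-OHT than in vehicle. The part of these markers in the values below was not tested. Markers of T, myeloid, NK and erythroid cells summed to at most 147 in any library, and the erythroid genes Hba-a1 and Hbb-bt were at 0 throughout. The T cell sum was 97.9 to 147 in TFEB cells in 4-OHT and 6.44 to 66.4 in the other groups. Most of it in TFEB cells in 4-OHT was Cd5, with a mean of 107. The 6 stromal and endothelial markers summed to 689 to 973, most of it Pecam1 (648 to 908). In bulk RNA, fewer cells of a type and less RNA per cell cannot be told apart.

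As a whole, the respiratory genes took nearly the same share of the library in all 4 groups. The 87 tested genes summed to 191557 ± 12080 normalized counts (SD, n = 3) in vector cells in vehicle and 192414 ± 4178 in vector cells under 4-OHT. In TFEB cells the sum was 193800 ± 10007 in vehicle and 194447 ± 2669 in 4-OHT. The libraries of the 4 groups overlapped. As a share of all reads they made up 1.17 ± 0.0520% in TFEB cells in vehicle and 1.21 ± 0.0141% in 4-OHT. Rn45s, the ribosomal RNA precursor, went in share from 5.67 ± 0.953% to 4.37 ± 0.209% between the same groups, and without it the shares of the respiratory genes were 1.24 ± 0.0506% and 1.27 ± 0.0147%.

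The sums of single complexes moved little as well. Complex I summed to 52200.8 ± 2510 in TFEB cells in vehicle and 53636 ± 1609 in 4-OHT. Complex II, with 4 genes, went from 8713 ± 199 to 8762 ± 165, and complex III from 14284 ± 679.8 to 15109.6 ± 396. Complex IV had 44439 ± 2864 and 45048 ± 243, and ATP synthase had 74164 ± 4034 and 71892 ± 800.1. Only for complex III did the 3 libraries in 4-OHT (14839.6 to 15564) all lie above the 3 in vehicle (13501 to 14714), and the vector libraries in vehicle reached up to 15149.

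**Figure D1:**
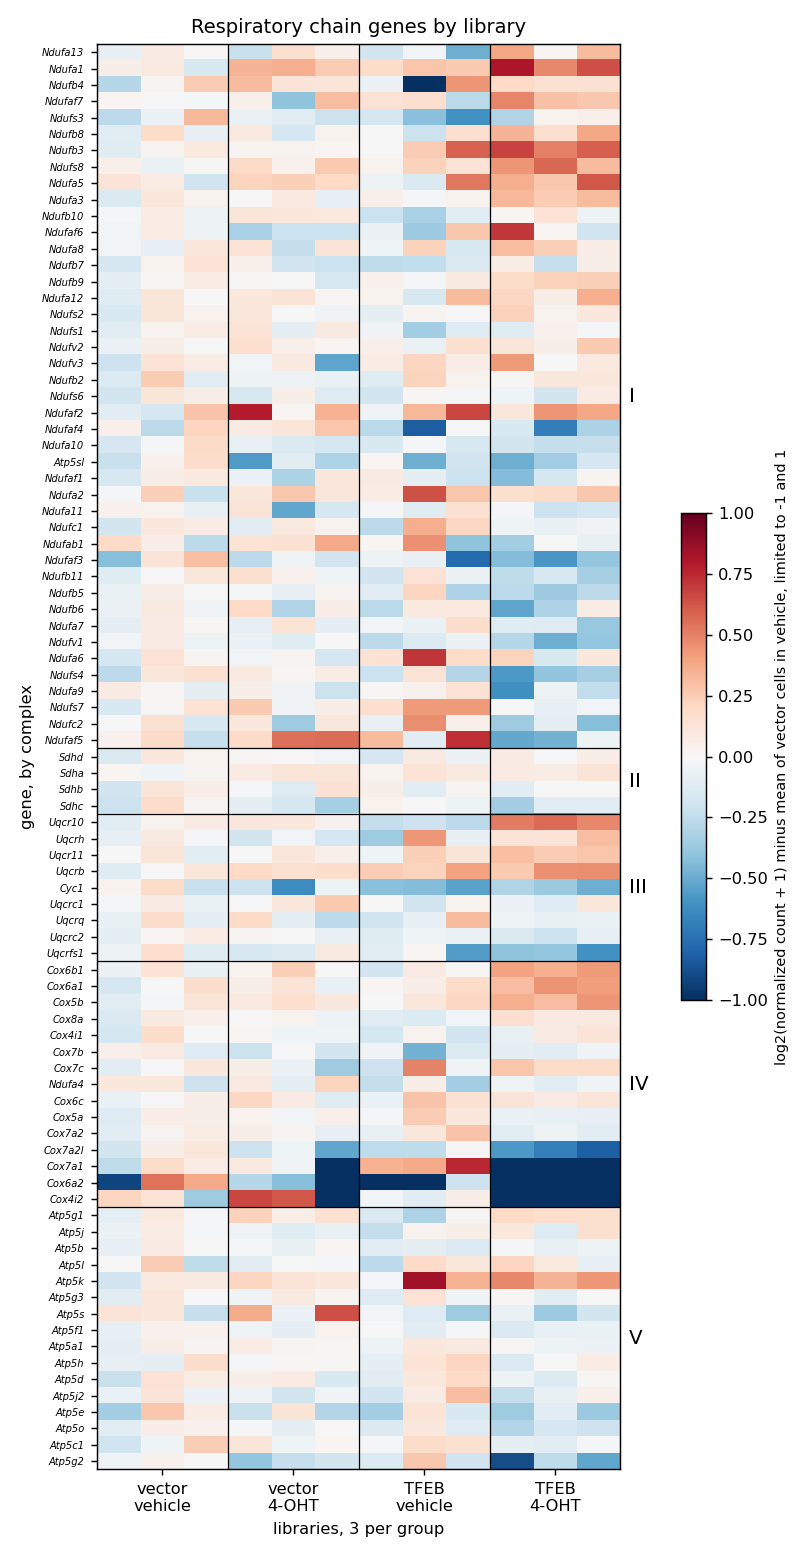
Levels of the 87 tested genes in the 12 libraries (columns, 3 per group), by complex (rows, labelled I to V at the right) and, within a complex, from the largest rise to the largest fall with 4-OHT in TFEB cells. Colour is log2(normalized count + 1) minus the mean of vector cells in vehicle, limited to -1 and 1. Most rows are pale in every group, while Uqcr10 is red in TFEB cells in 4-OHT. Cox7a1, Cox6a2 and Cox4i2 are dark blue in TFEB cells in 4-OHT and in vector 4-OHT library 3. Cox6a2 is also dark blue in TFEB vehicle libraries 1 and 2 and in vector vehicle library 1.

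Within TFEB cells, 4-OHT was set against vehicle to see how these genes respond once the fusion protein is active. With limma, 11 of the 87 genes (12.6%) rose and 8 (9.20%) fell, against 13.7% and 13.9% of all 13111 genes tested. Both shares are close to or below the background. Among genes whose mean was 200 or more, 13.3% of the 83 respiratory genes rose and 7.23% fell, against 19.1% and 20.7% of all 7794 such genes. The median log2 difference was -0.01 for the 87 genes and 0.04 for all tested genes. In size, 82 of the 87 (94.3%) differed by less than 1.5-fold, against 66.2% of all tested genes, and at a mean of 200 or more the shares were 97.6% and 80.4%. For 67 of the 87 the 95% interval of the difference lay wholly within 1.5-fold in either direction, as it did for 33.0% of all tested genes. Intervals were not compared at matched levels, and 83 of the 87 had a mean of 200 or more, against 7794 of all 13111. edgeR on whole reads called 6 higher and 9 lower, so the split between higher and lower differed from the 11 and 8 of limma.

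By kind of gene and by complex, the calls are given beside the 13.7% higher and 13.9% lower of all tested genes. Of the 74 structural subunits 11 (14.9%) rose and 4 (5.41%) fell, with a median of 0.03. Among the 10 assembly or coupling factors 0 rose and 1 (10%) fell, with a median of -0.08. All 3 tested tissue isoforms fell, with a median of -2.35. Cox4i2 reached 10 in 9 libraries, none of them of TFEB cells in 4-OHT, so it passed the filter only through the other groups. Of the isoforms not tested, Cox8b had 8.61, 7.74 and 0 in TFEB cells in 4-OHT and 0 in every other library. That all 3 fell thus depends partly on the filter and does not describe the class. By complex, 6 rose and 3 fell in complex I, 0 changed in complex II, 1 rose in complex III, 3 rose and 4 fell in complex IV and 1 rose and 1 fell in ATP synthase. Of the 19 calls, 7 held in every one of 23 alternatives of data or method: Uqcr10, Cox6b1, Ndufa1, Cox7a1, Cox4i2, Cox7a2l and Ndufs7. These are counts over few genes, and no test of the difference between kinds was made.

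**Figure D2:**
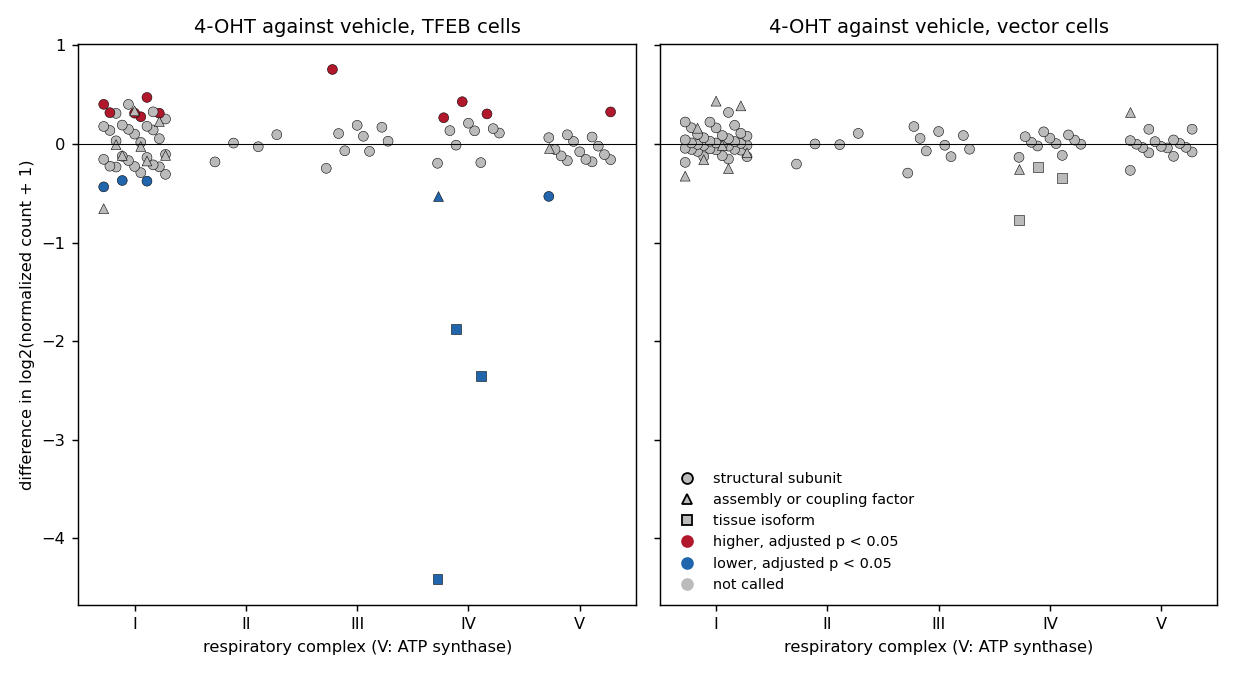
Difference of 4-OHT from vehicle in log2(normalized count + 1) for each of the 87 tested genes (points), by complex, in TFEB cells (left) and vector cells (right); marker shape gives the kind of gene and colour the limma call at an adjusted p under 0.05. In TFEB cells most points lie near 0. Further out are Uqcr10 at 0.75, Ndufaf5 of complex I at -0.66 (not called) and the tissue isoforms of complex IV at -1.87, -2.35 and -4.42. In vector cells no point is called.

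Core enzyme subunits gave examples of the narrow spread. Atp5b, the catalytic beta subunit of ATP synthase, had 16916, 17078 and 16685 in TFEB cells in vehicle and 18116, 17429.6 and 17655 in 4-OHT. The difference was 1.05-fold, with a 95% interval of 0.94 to 1.17, and did not pass (limma adjusted p = 0.604), although its groups did not overlap. Sdha, the flavoprotein of succinate dehydrogenase, had 3729.9, 3998 and 3854 in vehicle and 3850.3, 3829.8 and 3966 in 4-OHT, and these groups overlapped (1.01-fold, interval 0.903 to 1.12). The other core subunits fixed for description were not called either. Atp5a1 and Sdhb had log2 differences of -0.08 and -0.03. Ndufs1, Uqcrc1 and Cyc1 had 0.14, 0.03 and 0.08, and Cox4i1 and Cox5a had 0.15 and -0.19. Ndufv1, the NADH-binding subunit, and Uqcrfs1, the Rieske protein, had -0.23 and -0.25. The exception was Ndufs7, described below. The smallest differences of each complex were -0.01 for Ndufaf2, 0.01 for Sdha, 0.03 for Uqcrc1, -0.01 for Cox6c and -0.02 for Atp5g3.

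The largest changes were in the tissue isoforms of complex IV. Cox7a1 (chr7:30184144-30186078, mm10) encodes the heart and muscle form of subunit 7A. It had 682, 923 and 857 in vector cells in vehicle, 871, 796 and 379 in vector cells under 4-OHT, 1034, 1061 and 1371 in TFEB cells in vehicle and 378, 269.8 and 298 in TFEB cells in 4-OHT. The 3 TFEB libraries in 4-OHT were the lowest of all 12, just below the 379 of vector 4-OHT library 3, and far below the 3 in vehicle. With 4-OHT it fell 3.66-fold in TFEB cells (log2 -1.87 ± 0.20 SE, limma adjusted p = 8.04e-09). Before 4-OHT it stood higher in TFEB than in vector cells without overlap, a difference that did not pass (log2 0.49 ± 0.20 SE, limma adjusted p = 0.174). In vector cells the groups overlapped (log2 -0.35 ± 0.20 SE, limma adjusted p = 0.865), and the effect differed between the lines (interaction log2 -1.53 ± 0.29 SE, limma adjusted p = 0.000179, lost without a variance trend at 0.0535).

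Its ubiquitous counterpart did not follow it. Cox7a2 had 3704, 4214 and 4764 in TFEB cells in vehicle and 3605, 3769 and 3638 in 4-OHT, with overlapping groups (log2 -0.20 ± 0.09 SE, limma adjusted p = 0.0999). This call depended on the data kept or the tool, passing with DESeq2 (adjusted p = 0.049), in limma without TFEB vehicle library 1 (0.0193) and without the 3 gene-rich libraries (0.0442). Per exon length, Cox7a1 stood at 0.336 ± 0.0233 of Cox7a2 in TFEB cells in vehicle and at 0.106 ± 0.0209 in 4-OHT (n = 3). In vector cells the ratio was 0.258 ± 0.0275 and 0.212 ± 0.0747. The exact two-sided permutation p was 0.1 in TFEB cells, the smallest that 3 against 3 allow, and 0.5 in vector cells.

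Cox4i2 (chr2:152754173-152765037), the lung isoform of subunit 4, known to be induced by low oxygen, was a gene of low counts. It had 50.9, 48.0 and 34.0 in vector cells in vehicle, 69.8, 67.6 and 10.1 in vector cells under 4-OHT, 42.8, 40.6 and 45.6 in TFEB cells in vehicle and 0, 7.74 and 0 in TFEB cells in 4-OHT. All 3 TFEB libraries in 4-OHT lay below every other library. A value of 0 allows up to 3 reads, or 2.21 to 4.15 on this scale according to the library, for counting error only. The log2 difference was -4.42 ± 0.87 SE in TFEB cells (limma adjusted p = 0.000176). Because of the zeros its size rests on the pseudocount, and with 10 in place of 1 it was -2.13 (limma adjusted p = 0.000875). The interaction was -4.18 ± 1.23 SE (limma adjusted p = 0.0162), and it was lost without a filter on low values (0.101), without a variance trend (0.0791) and without vector 4-OHT library 1 (0.0673) or 2 (0.0534). Cox4i1, the ubiquitous form, had 3790 ± 341 in TFEB cells in vehicle and 4216 ± 309 in 4-OHT, with overlapping groups.

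Cox6a2 (chr7:128205435-128206387) encodes the heart and muscle form of subunit 6A. Its values were 37.6, 105 and 94.1 in vector cells in vehicle, 59.0, 53.4 and 22.8 in vector cells under 4-OHT, 34.3, 26.7 and 62.2 in TFEB cells in vehicle and 12.9, 3.87 and 5.82 in TFEB cells in 4-OHT. Again the TFEB libraries in 4-OHT were the lowest 3 of the 12. The log2 difference in TFEB cells was -2.35 ± 0.65 SE (limma adjusted p = 0.00597) and -1.51 with a pseudocount of 10. It was lost with only the groups compared (adjusted p = 0.059) and without the 3 gene-rich libraries (0.063), and the interaction did not pass (-1.58 ± 0.92 SE, limma adjusted p = 0.302). Of its exon length, 10.3% overlaps exons of Itgad on the opposite strand, and the strand setting of the counting is unknown here. Cox6a1, the ubiquitous form, rose instead, as given below.

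In vector cells, library 3 in 4-OHT was the lowest of its group for all 3 of these isoforms. Without it, the log2 difference of 4-OHT in vector cells was 0.03 for Cox7a1, 0.64 for Cox4i2 and -0.36 for Cox6a2. The interactions without it were -1.91 (limma adjusted p = 5.62e-08) for Cox7a1 and -5.06 (0.00271) for Cox4i2, while that of Cox6a2 still did not pass (0.172).

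Muscle markers were examined beside these isoforms. The 5 genes (Myh7, Actn2, Tnnt2, Ckm and Acta1) summed to 205 to 259.7 in vector cells in vehicle, 139.5 to 214 in vector cells in 4-OHT, 168 to 271 in TFEB cells in vehicle and 86.3 to 204 in TFEB cells in 4-OHT. Most of the sum was Tnnt2, a troponin, with group means of 234, 160.4, 174 and 84.6. Myh7 was at 0 in 6 of the 12 libraries, Actn2 in 9, Ckm in 6 and Acta1 in 6. The part of these genes in the isoform values was not tested. The remaining isoform genes, Cox6b2, Cox7b2, Cox8b, Cox8c and Ndufa4l2, were too low to test.

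**Figure D3:**
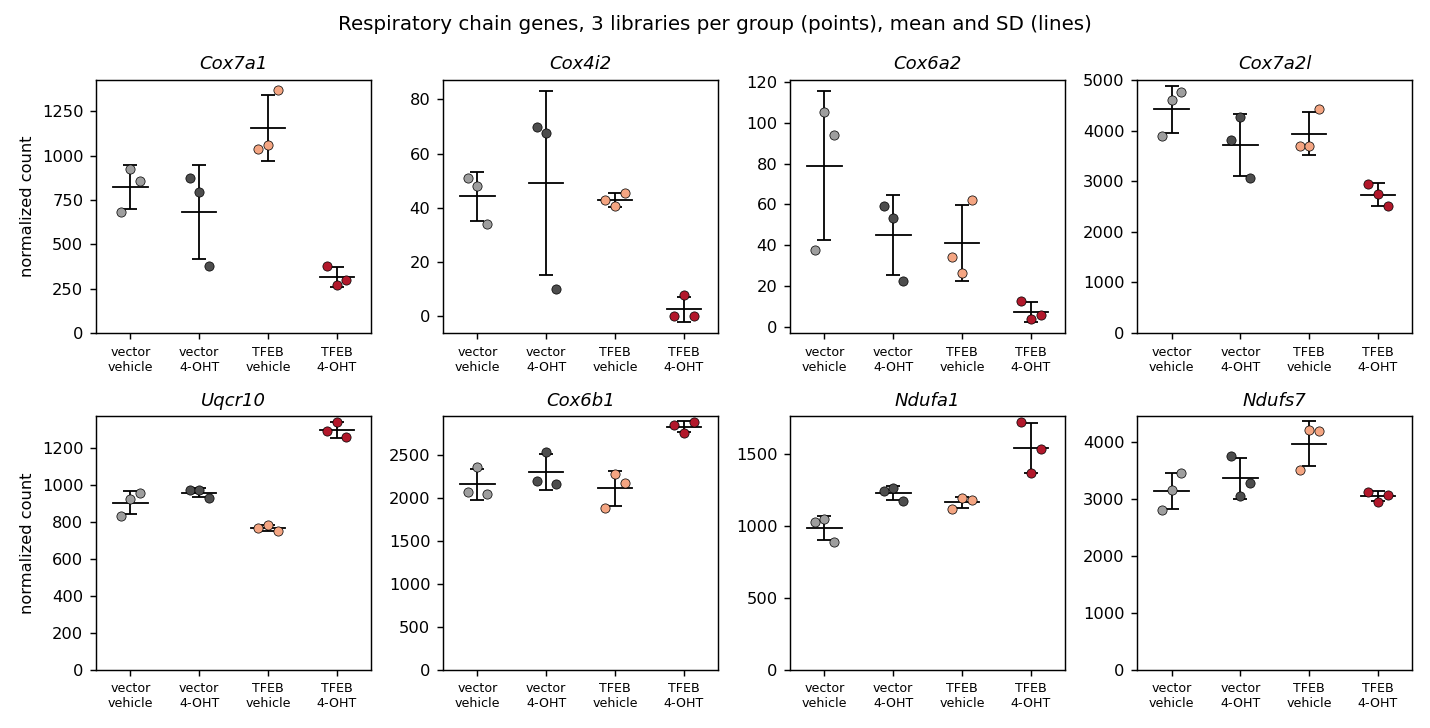
Normalized counts of 8 respiratory chain genes in the 4 groups: points are the 3 libraries of a group, long lines the mean and whiskers the SD, on linear axes. The 3 TFEB libraries in 4-OHT lie below all others for Cox7a1, Cox4i2, Cox6a2 and Cox7a2l and above all others for Uqcr10, Cox6b1 and Ndufa1; for Ndufs7 they fall to the range of vector cells.

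Among structural subunits the largest rise was in complex III. Uqcr10 (chr11:4701973-4704342), a small subunit of the complex, had 835, 925 and 959 in vector cells in vehicle, 977, 974 and 930.0 in vector cells under 4-OHT, 769, 784 and 755 in TFEB cells in vehicle and 1292, 1344 and 1261 in TFEB cells in 4-OHT. The TFEB vehicle libraries were the lowest of the 12 and the TFEB 4-OHT libraries the highest. With 4-OHT it rose 1.69-fold in TFEB cells (log2 0.75 ± 0.11 SE, limma adjusted p = 9.91e-07), and the interaction was 0.67 ± 0.15 SE (limma adjusted p = 0.00138). Both calls held in every alternative tried. The lower level of TFEB cells in vehicle, against vector cells in vehicle, did not pass (log2 -0.23 ± 0.11 SE, limma adjusted p = 0.226). The other 8 genes of complex III did not pass, with log2 differences from -0.25 for Uqcrfs1 to 0.19 for Uqcrh.

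Complex IV had 3 structural subunits that rose: Cox6b1 and Cox6a1, the ubiquitous forms of their subunits, and Cox5b. Cox6b1 (chr7:30616861-30626151), which faces the intermembrane space, had 1880.0, 2278 and 2173 in TFEB cells in vehicle and 2849.5, 2757 and 2886 in 4-OHT. In the vector libraries it ranged from 2042 to 2539, so the TFEB libraries in 4-OHT stood above all others (1.35-fold, log2 0.43 ± 0.09 SE, limma adjusted p = 0.000634). The interaction did not pass (log2 0.34 ± 0.13 SE, limma adjusted p = 0.0864).

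Cox6a1 had 6072, 6274 and 6809 in TFEB cells in vehicle and 7434, 8193 and 8019 in 4-OHT, without overlap (log2 0.30 ± 0.09 SE, limma adjusted p = 0.00815). That call was lost without a variance trend (0.0682) and without the 3 gene-rich libraries (0.158). Cox5b had 1895, 2065 and 2198 in vehicle and 2446, 2359.6 and 2589 in 4-OHT (log2 0.27 ± 0.09 SE, limma adjusted p = 0.0256). It lost its call without TFEB vehicle library 1 (0.129) and without TFEB 4-OHT library 1 (0.0593) or 3 (0.123). The call of Cox5b was also lost without a variance trend (0.0561), with edgeR (0.0781) and without the 3 gene-rich libraries (0.134). Cox8a, a ubiquitous subunit just outside the threshold, had a log2 difference of 0.21 (limma adjusted p = 0.0524).

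Cox7a2l (chr17:83501918-83517330), known as a factor for joining complexes III and IV into supercomplexes, which were not measured here, moved the other way. Its values were 3889, 4617 and 4762 in vector cells in vehicle, 3815, 4276 and 3065 in vector cells under 4-OHT, 3699.9, 3696 and 4436 in TFEB cells in vehicle and 2956, 2747 and 2505 in TFEB cells in 4-OHT. The TFEB libraries in 4-OHT were below the other 9, and vector 4-OHT library 3 came next. It fell 1.44-fold in TFEB cells (log2 -0.53 ± 0.11 SE, limma adjusted p = 0.000225), a call that held in every alternative. The interaction (log2 -0.27 ± 0.15 SE, limma adjusted p = 0.27) did pass without vector 4-OHT library 3 (-0.40, limma adjusted p = 0.0458).

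In complex I, Ndufa1 (chrX:37187588-37191163), a small accessory subunit, had 1116, 1194 and 1181 in TFEB cells in vehicle and 1721, 1371 and 1539 in 4-OHT (1.32-fold, log2 0.40 ± 0.11 SE, limma adjusted p = 0.00385). In vector cells it had 1025, 1047 and 887 in vehicle and 1244, 1267 and 1174 in 4-OHT. The groups did not overlap in either line, although the difference in vector cells did not pass (log2 0.32 ± 0.11 SE, limma adjusted p = 0.495, unadjusted p = 0.00504). Its interaction was 0.08 ± 0.15 SE (limma adjusted p = 0.824), so no difference of the 4-OHT effect between the lines was found for Ndufa1.

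Ndufs7 (chr10:80249121-80256794), an iron-sulfur core subunit near the quinone site, had 2819, 3159.6 and 3458 in vector cells in vehicle, 3763, 3053 and 3286 in vector cells under 4-OHT, 3515, 4209.9 and 4209 in TFEB cells in vehicle and 3127, 2955 and 3072 in TFEB cells in 4-OHT. The TFEB vehicle libraries were high, and those in 4-OHT lay within the range of the vector cells. It fell 1.30-fold with 4-OHT in TFEB cells (log2 -0.38 ± 0.09 SE, limma adjusted p = 0.00237), a call held in every alternative. The interaction was -0.48 ± 0.13 SE (limma adjusted p = 0.0113), lost without a variance trend (0.105) and without vector 4-OHT library 1 (0.055).

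The remaining calls in complex I were small and less stable. Without a variance trend in limma, Ndufa13 (adjusted p = 0.0546), Ndufb8 (0.125), Ndufb3 (0.148), Ndufc2 (0.127) and Ndufa9 (0.0917) were lost. With edgeR the calls of Ndufs8 (0.0512), Ndufb8 (0.0602) and Ndufb3 (0.086) were lost. Without the 3 gene-rich libraries those of Ndufs8 (0.251), Ndufb3 (0.245) and Ndufa3 (0.0886) were lost. Other losses are given by gene. Ndufs8, another iron-sulfur core subunit, rose by 0.31 on the log2 scale (limma adjusted p = 0.0166), lost without TFEB vehicle library 1 (0.0811) or TFEB 4-OHT library 2 (0.118). Among accessory subunits, Ndufa13 rose by 0.47 (limma adjusted p = 0.0178), lost without TFEB vehicle library 3 (0.111) or TFEB 4-OHT library 1 (0.0991) or 3 (0.0752). Its exons overlap those of Tssk6 on the opposite strand over 29.98% of their length. Ndufb8 rose by 0.32 (limma adjusted p = 0.0168) with overlapping groups, lost without TFEB vehicle library 2 (0.136) or TFEB 4-OHT library 1 (0.0655) or 3 (0.0965). Ndufb3 rose by 0.31 (limma adjusted p = 0.0269), also with overlap, lost without TFEB vehicle library 1 (0.272) or 2 (0.0665) or TFEB 4-OHT library 1 (0.12) or 3 (0.073). Ndufa3 rose by 0.28 (limma adjusted p = 0.043), and leaving out any 1 of the 6 TFEB libraries ended this call, with adjusted p from 0.0642 to 0.116. A replicate block (0.0502), no filter on low values (0.0707) and edgeR (0.111) ended it as well. Ndufc2 fell by 0.44 (limma adjusted p = 0.0276), lost without TFEB vehicle library 2 (0.22) or TFEB 4-OHT library 1 (0.0907) or 3 (0.129). Ndufa9 fell by 0.37 (limma adjusted p = 0.0243), lost without TFEB vehicle library 3 (0.0781) or TFEB 4-OHT library 1 (0.244).

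None of the 8 complex I assembly factors passed in TFEB cells. The largest difference among them, and in all of complex I, was that of Ndufaf5, which has a role in maturing the subunit Ndufs7. It had 190.2, 141 and 254 in vehicle and 107, 109.7 and 147 in 4-OHT (log2 -0.66 ± 0.27 SE, limma adjusted p = 0.0724), with 1 pair of libraries overlapping. In vector cells its log2 difference was 0.43, and the interaction just missed the threshold (-1.09 ± 0.38 SE, limma adjusted p = 0.0503). The other 7 ranged from -0.17 for Ndufaf3 to 0.34 for Ndufaf7.

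ATP synthase gave opposite calls for genes of 1 protein. Subunit c forms the rotating ring of the enzyme, and Atp5g1, Atp5g2 and Atp5g3 encode the same mature subunit with different import sequences. Atp5g1 (chr11:96068852-96075670) had 2525, 2253 and 2821 in TFEB cells in vehicle and 3206, 3149.5 and 3122 in 4-OHT. It rose 1.25-fold, with no overlap (log2 0.32 ± 0.09 SE, limma adjusted p = 0.0054), a call lost without the 3 gene-rich libraries (0.052). Atp5g2 (chr15:102662864-102672352) had 909, 1206 and 872 in vehicle and 540.2, 839 and 697 in 4-OHT. It fell 1.45-fold, again with no overlap (log2 -0.53 ± 0.14 SE, limma adjusted p = 0.0036), and was lost without a variance trend (0.0535) and without TFEB 4-OHT library 1 (0.0611). Atp5g3 (chr2:73908447-73911326) had 1711, 2072 and 1818 in vehicle and 1885, 1744 and 1871 in 4-OHT, with overlapping groups (log2 -0.02 ± 0.09 SE).

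Vector cells showed differences of the same sign that did not pass. There Atp5g1 went from 2798 ± 182 to 3100 ± 172 (log2 0.15 ± 0.09 SE, limma adjusted p = 0.872) and Atp5g2 from 999 ± 29.9 to 831 ± 60.6 (log2 -0.27 ± 0.14 SE, limma adjusted p = 0.802). For neither gene did the interaction pass (0.18 and -0.26, limma adjusted p = 0.431 and 0.458). The ratio of Atp5g1 to Atp5g2 in normalized counts was 2.80 ± 0.101 and 3.75 ± 0.469 in vector cells in vehicle and in 4-OHT, against 2.63 ± 0.696 and 4.72 ± 1.11 in TFEB cells (n = 3). In both lines the 3 ratios in 4-OHT lay above the 3 in vehicle, with an exact two-sided permutation p of 0.1, the smallest that 3 against 3 allow.

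**Figure D4:**
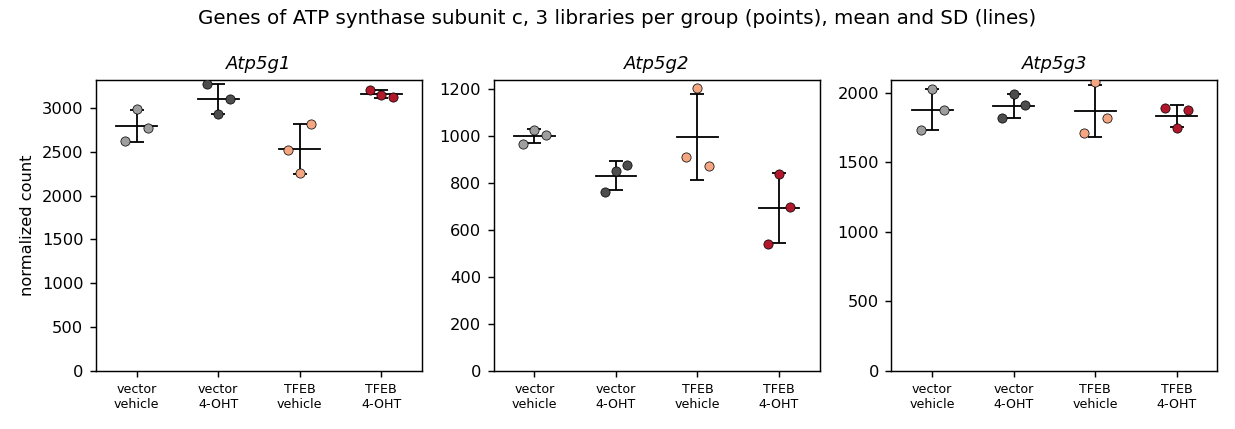
Normalized counts of the 3 genes of ATP synthase subunit c in the 4 groups: points are the 3 libraries of a group, long lines the mean and whiskers the SD, on linear axes from 0. In TFEB cells Atp5g1 lies higher and Atp5g2 lower in 4-OHT than in vehicle without overlap, while Atp5g3 overlaps.

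The bases before the start sites of these 3 genes are shown because the genes of 1 protein were called differently, and those of Uqcr10 and Cox7a1 are given as the genes of the largest rise and of the fall with the smallest p. They are RefSeq sequences in build GRCm38.p6, written 5′ to 3′ on the strand of the gene, and capitals mark a match to a motif searched. Windows end upstream of the RefSeq start where an annotated GENCODE exon begins earlier. The Atp5g2 window lies inside the GENCODE gene, which begins at base 102672352 of the minus strand, whereas the other windows lie at the start of theirs. The windows of the subunit c genes are thus not alike.
Atp5g1 (chr11:96075661-96075860, minus strand): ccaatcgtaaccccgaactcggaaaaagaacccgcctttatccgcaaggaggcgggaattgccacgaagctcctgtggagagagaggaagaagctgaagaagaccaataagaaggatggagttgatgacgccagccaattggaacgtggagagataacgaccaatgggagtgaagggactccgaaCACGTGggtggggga
Atp5g2 (chr15:102671118-102671297, minus strand): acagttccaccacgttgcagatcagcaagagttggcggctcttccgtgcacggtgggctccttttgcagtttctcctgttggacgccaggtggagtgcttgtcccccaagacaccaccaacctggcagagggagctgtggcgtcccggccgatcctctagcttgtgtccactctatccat
Atp5g3 (chr2:73911327-73911526, minus strand): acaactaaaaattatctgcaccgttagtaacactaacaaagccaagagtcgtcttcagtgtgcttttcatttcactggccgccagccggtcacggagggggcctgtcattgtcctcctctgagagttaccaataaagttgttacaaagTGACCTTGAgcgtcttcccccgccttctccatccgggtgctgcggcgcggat
Uqcr10 (chr11:4704345-4704544, minus strand): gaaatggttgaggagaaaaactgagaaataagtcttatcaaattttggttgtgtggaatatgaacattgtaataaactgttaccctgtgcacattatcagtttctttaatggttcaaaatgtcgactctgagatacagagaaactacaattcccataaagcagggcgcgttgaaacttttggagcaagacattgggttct
Cox7a1 (chr7:30183954-30184153, plus strand): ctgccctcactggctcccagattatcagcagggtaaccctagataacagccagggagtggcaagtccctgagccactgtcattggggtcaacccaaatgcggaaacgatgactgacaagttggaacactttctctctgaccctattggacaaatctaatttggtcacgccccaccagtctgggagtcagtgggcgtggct

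The capitals in Atp5g1 are an E-box, CACGTG, the core of sites bound by MYC and by TFEB family proteins, which begins 44 bases before the RefSeq start. In Atp5g3 they are the reverse complement of TCAAGGTCA, the site of ERR nuclear receptors, which begins 52 bases before the start. A second E-box begins 238 bases before the start of Atp5g3, outside the printed window. Atp5g3 also has a match to the NRF1 site, GCGCNTGCG, that begins at base 13 after its start. Atp5g2 has a match to the NRF1 site that begins 42 bases before its RefSeq start, outside the printed window. Uqcr10 has a match to the NRF1 site that begins at base 2 after its start. For Cox7a1 the 300 bases searched hold none of the motifs.

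Promoters were searched on both strands from 250 bases before to 50 bases after the start, for the 72 tested respiratory genes and 9587 tested genes in all with an entry. The NRF1 site, named for a factor known to drive respiratory genes, was in 25 of 72 (34.7%), against 15.1% of all tested genes and 7.12% of all 27025 genes with a promoter entry. YY1 (AAGATGGCG) was in 8 (11.1%, against 3.52% of tested genes) and ERR in 2 (2.78%, against 0.302%). The GABPA site (CCGGAAGT) was in 5 (6.94%, against 9.01%). E-boxes were in 7 (9.72%, against 11.5%), namely Atp5f1, Atp5g1, Atp5g3, Atp5l, Atp5sl, Ndufa7 and Ndufv1. Of these 7 only Atp5g1 was called for 4-OHT in TFEB cells, beside 13.7% higher and 13.9% lower of all tested genes. The extended E-box TCACGTGA, which contains the E-box, was in 1, Ndufa7, against 2.20%. The 25 genes with an NRF1 match had a median log2 difference of 0.02, the 47 without -0.03. For YY1 the medians with and without a match were -0.16 and 0.03, and for GABPA 0.19 and -0.02. For the E-box they were -0.06 and 0.02, and for ERR 0.04 and 0.001. Of the 25 NRF1 genes 2 were called higher and 1 lower, and of the 8 YY1 genes 2 were called lower. These sets are small, and no test was made. A match is a description of letters, not of binding.

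In vector cells, 4-OHT had no called effect on these genes. With limma 0 of 87 rose and 0 fell, against 0% and 0.0153% of all tested genes, and edgeR and DESeq2 also called 0. At an unadjusted p under 0.05 there were 3: Ndufa1 at 0.32, Cox7a2l at -0.26 and Cyc1 at -0.30 on the log2 scale. For 77 of the 87 the 95% interval of the difference lay within 1.5-fold in either direction, as it did for 51.3% of all tested genes, again without matching for level. The interaction, which tests whether the effect of 4-OHT differed between the lines, called 1 gene higher (1.15%) and 3 lower (3.45%), against 7.75% and 8.01% of all tested genes. These were Uqcr10 up and Cox7a1, Cox4i2 and Ndufs7 down, with the values given above.

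Few differences between the lines were called in vehicle. Of the 87 genes 1 was higher and 1 lower in TFEB cells than in vector cells, against 2.89% and 2.49% of all tested genes. Ndufs7 was higher (log2 0.34 ± 0.09 SE, limma adjusted p = 0.0276), a call lost without vector vehicle library 1 (0.179) or 2 (0.0766) or TFEB vehicle library 2 (0.114) or 3 (0.105). That call was also lost without a variance trend (0.206), with only the groups compared (0.128) and with edgeR (0.0776). Cyc1, the cytochrome c1 of complex III, had 899, 992 and 752 in vector cells in vehicle and 654, 648 and 603 in TFEB cells in vehicle. It was lower without overlap (log2 -0.46 ± 0.14 SE, limma adjusted p = 0.0454), but leaving out any 1 of 8 libraries ended the call: vector vehicle 1 (0.135) or 2 (0.24), TFEB vehicle 1 (0.0731), 2 (0.0821) or 3 (0.116), or TFEB 4-OHT 1 (0.0534), 2 (0.0532) or 3 (0.0583). The call of Cyc1 was also lost without a filter on low values (0.0532), without a variance trend (0.201), with only the groups compared (0.0852) and without the 3 gene-rich libraries (0.0713).

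In 4-OHT, 11 genes were higher and 10 lower in TFEB than in vector cells, or 12.6% and 11.5% of the 87, against 13.6% and 13.5% of all tested genes. edgeR called 4 higher and 10 lower. This comparison shares the TFEB 4-OHT libraries with the comparison within TFEB cells, so their values are given side by side and not as separate evidence. Uqcr10 was higher by 0.44 (limma adjusted p = 0.00173) and Cox6a1 by 0.35 (0.0022). Cox4i2 was lower by 4.20 (0.000312), Cox7a1 by 1.04 (0.00015) and Cox7a2l by 0.43 (0.00188), the last 2 calls being lost without the 3 gene-rich libraries (0.057 and 0.0973). That of Cox7a2l was also lost without a variance trend (0.061).

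Ndufb3, a membrane-arm subunit of complex I, was the most clearly higher structural subunit here. It had 1996, 2003 and 1983 in vector cells in 4-OHT and 3128, 2778 and 2953 in TFEB cells in 4-OHT (log2 0.56 ± 0.11 SE, limma adjusted p = 0.000101). In TFEB cells in vehicle it had 1951, 2329.6 and 2949.9, a spread that reached from the vector level to the 4-OHT level. Ndufs4, an accessory subunit of the NADH-oxidizing arm, was lower, with 1062, 1008 and 1052 in vector cells in 4-OHT and 669, 756 and 792 in TFEB cells in 4-OHT (log2 -0.50 ± 0.13 SE, limma adjusted p = 0.00309). Both calls held in every alternative. Calls in the rest of the chain's NADH arm went both ways. Ndufv1 was lower by 0.33 (limma adjusted p = 0.0137, lost without vector 4-OHT library 3 at 0.0503, TFEB 4-OHT library 2 at 0.08 or the 3 gene-rich libraries at 0.0752). Ndufv3 was higher by 0.33, with overlapping groups and a call that was also lost, as given below. Ndufs1 did not pass (log2 -0.07), nor did Ndufv2 and Ndufs6.

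Of the 10 assembly or coupling factors, 3 (30%) were lower and 0 higher in TFEB than in vector cells in 4-OHT. Of all tested genes 13.5% were lower and 13.6% higher. The 3 were Cox7a2l, and Ndufaf4 and Ndufaf5 of complex I. Ndufaf4 had 1046, 1075 and 1199.7 in vector cells and 889, 611 and 793 in TFEB cells (log2 -0.55 ± 0.16 SE, limma adjusted p = 0.00911). This call was lost without TFEB 4-OHT library 2 (0.0954), without a variance trend (0.124) and without the 3 gene-rich libraries (0.196). Ndufaf5 had 175, 224 and 225 in vector cells against 107, 109.7 and 147 (log2 -0.78 ± 0.27 SE, limma adjusted p = 0.0301), lost without vector 4-OHT library 2 (0.0921) or 3 (0.0895) or TFEB 4-OHT library 1 (0.0999) or 2 (0.0935). Array weights (0.0775) and leaving out the 3 gene-rich libraries (0.222) ended the call of Ndufaf5 as well. In vehicle, Ndufaf4 had 999 ± 166 (SD, n = 3) in vector and 790 ± 219 in TFEB cells, a difference not called. Its mean in TFEB cells in 4-OHT was 764 ± 141. Ndufaf5 had 154 ± 22.6 and 195 ± 56.9 in the same vehicle groups, also not called. Cox6a2 was lower by 2.46 (limma adjusted p = 0.00408), lost without the 3 gene-rich libraries (0.0869).

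The remaining calls in this comparison were each lost when single libraries were left out. Those of Cox5b, Cox6b1, Ndufa1, Ndufa3, Ndufb8, Ndufb9, Ndufs8 and Ndufb11 were also lost in alternatives of filter, model or tool. In complex IV, Cox5b was higher by 0.25 (limma adjusted p = 0.0375), lost without vector 4-OHT library 1 (0.105) or 3 (0.081) or TFEB 4-OHT library 1 (0.08) or 3 (0.16). Cox6b1 was higher by 0.30 (limma adjusted p = 0.0137), lost without vector 4-OHT library 1 (0.0615) or 3 (0.064) or TFEB 4-OHT library 3 (0.0555). In complex III, Uqcrfs1 was lower by 0.39 (limma adjusted p = 0.0334), lost without vector 4-OHT library 3 (0.148) or TFEB 4-OHT library 1 (0.0522) or 3 (0.157). In complex I, 6 structural subunits were higher by 0.27 to 0.33 and Ndufb11 was lower. Ndufa1 (0.32) was lost without vector 4-OHT library 3 (0.0695) or TFEB 4-OHT library 1 (0.148) or 3 (0.0588). Ndufa3 (0.30) was lost without vector 4-OHT library 1 (0.0671) or 3 (0.108) or TFEB 4-OHT library 1 (0.0858) or 3 (0.0849). Ndufb8 (0.31) was lost without vector 4-OHT library 2 (0.135) or TFEB 4-OHT library 1 (0.0724) or 3 (0.106). For Ndufb9 (0.27), whose exons overlap another gene over 19.5% of their length, these were vector 4-OHT library 3 (0.103) and TFEB 4-OHT libraries 2 (0.0602) and 3 (0.0671). For Ndufs8 (0.28) they were vector 4-OHT libraries 1 (0.0555) and 2 (0.145) and TFEB 4-OHT libraries 1 (0.0715) and 2 (0.181). Ndufv3 (0.33), the only call here with overlapping groups, was lost without vector 4-OHT library 3 (0.441), TFEB 4-OHT library 1 (0.312) or 3 (0.061), vector vehicle library 3 (0.054) or TFEB vehicle library 1 (0.0524). Ndufb11 (-0.30), with 12.9% of its exon length shared with Rbm10, was lost without vector 4-OHT library 1 (0.166) or 2 (0.0704) or TFEB 4-OHT library 1 (0.0881) or 3 (0.155).

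Genes outside the name rule that build or control the chain were taken from lists fixed for this purpose. Of 42 tested assembly factors with other names, 2 rose and 3 fell with 4-OHT in TFEB cells (4.76% and 7.14%, against 13.7% and 13.9% of all tested genes), with a median of 0.09. Coa5, a complex IV assembly factor, had 1139.6, 1085 and 979 in vehicle and 2327, 2023 and 2116 in 4-OHT (log2 1.01 ± 0.10 SE, limma adjusted p = 1.95e-09). Cmc2, also of complex IV, had 440.4, 366 and 322 in vehicle and 859.8, 967 and 826 in 4-OHT (log2 1.24 ± 0.14 SE, limma adjusted p = 2.61e-08). Neither gene's groups overlapped. In vector cells in vehicle and in 4-OHT, Coa5 had 1324 ± 75.2 and 1251 ± 113 (SD, n = 3), and Cmc2 521 ± 36.8 and 597 ± 50.2. In vehicle both genes thus had lower means in TFEB than in vector cells. Of the 15 tested genes of complex IV itself, 12 differed by less than 1.5-fold. Ecsit, of complex I assembly, fell by 0.94 (limma adjusted p = 2.2e-07), and Surf1, a complex IV assembly factor, fell by 0.67 (limma adjusted p = 0.00593). Lrpprc, which stabilizes mitochondrial mRNA, fell by 0.24 (limma adjusted p = 0.0248), lost without TFEB vehicle library 1 (0.112) or 2 (0.0591) or TFEB 4-OHT library 1 (0.0503), 2 (0.0545) or 3 (0.1). Its call was also lost without a filter on low values (0.0512), without a variance trend (0.0654) and without the 3 gene-rich libraries (0.177).

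Of 18 tested genes of electron carriers and coenzyme Q synthesis, 1 rose and 2 fell (5.56% and 11.1%, against the same 13.7% and 13.9%), with a median of -0.08. Coq7, a hydroxylase of coenzyme Q synthesis, had 2632, 3335 and 3084 in TFEB cells in vehicle and 1072, 989 and 910.0 in 4-OHT (log2 -1.60 ± 0.09 SE, limma adjusted p = 8.33e-15). Adck3, a kinase-like protein that supports the same pathway, had 233, 218 and 159 in vehicle and 650.0, 645 and 712 in 4-OHT (log2 1.73 ± 0.21 SE, limma adjusted p = 1.1e-07). These 2 genes of 1 pathway thus moved apart, each with no overlap of its groups. Coq5, a methyltransferase of the pathway, fell by 0.44 (limma adjusted p = 0.00396), and Cycs, which encodes cytochrome c, had a log2 difference of -0.12 (limma adjusted p = 0.587).

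Of 11 tested regulators of respiratory genes, 3 rose and 1 fell (27.3% and 9.09%, against 13.7% and 13.9%), with a median of 0.29. Ppargc1a, the gene of the mitochondrial biogenesis coactivator PGC-1 alpha, had 6.85, 16.0 and 20.7 in TFEB cells in vehicle and 833, 941 and 806 in 4-OHT (log2 5.91 ± 1.01 SE, limma adjusted p = 2.66e-05). In vector cells it was at 0 to 1.47 in 5 libraries and at 30.8 in 4-OHT library 2. Some other genes of these lists, fixed for description, did not pass. Esrra, the receptor ERR alpha, had a log2 difference of 0.41 (limma adjusted p = 0.299). Nrf1 had 0.09, Gabpa -0.04 and Ppargc1b 0.29. Tfam, the packaging factor of mitochondrial DNA, had -0.15. Crtc2, a CREB coactivator, rose by 0.58 (limma adjusted p = 3.98e-05) and Hif1a by 0.43 (limma adjusted p = 0.000814). In TFEB cells Crtc2 went from 1038 ± 132 in vehicle to 1550 ± 93.5 in 4-OHT (SD, n = 3). In vector cells it had 1328 ± 12.4 and 1331 ± 62.9, so its level in vehicle was lower in TFEB cells. Hif1a had a higher mean in vehicle in TFEB cells (2459 ± 409) than in vector cells (1830 ± 91.3). Gabpb1, a partner of Gabpa, had 1278, 1773 and 1150.1 in vehicle and 762, 781 and 904 in 4-OHT, and fell without overlap (log2 -0.76 ± 0.13 SE, limma adjusted p = 2.36e-05).

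Of 19 genes of mitochondrial DNA replication and expression, 2 rose and 1 fell (10.5% and 5.26%, against 13.7% and 13.9%), with a median of 0.08. Polg, the mitochondrial DNA polymerase, rose by 0.62 (limma adjusted p = 0.000263). Mgme1, an exonuclease of the same process, fell by 0.58 (limma adjusted p = 0.00658, lost without the 3 gene-rich libraries at 0.0569). Tbrg4, an RNA-binding protein of mitochondria, rose by 0.29 (limma adjusted p = 0.0473), a call lost without any 1 of the vector vehicle libraries, vector 4-OHT library 2, TFEB vehicle library 2 or any 1 of the TFEB 4-OHT libraries, at adjusted p from 0.0537 to 0.319. Its means in vehicle and in 4-OHT were 1086 ± 157 and 1318 ± 69.6 in TFEB cells, below 1468 ± 48.3 and 1440 ± 144 in vector cells (SD, n = 3).

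**Figure D5:**
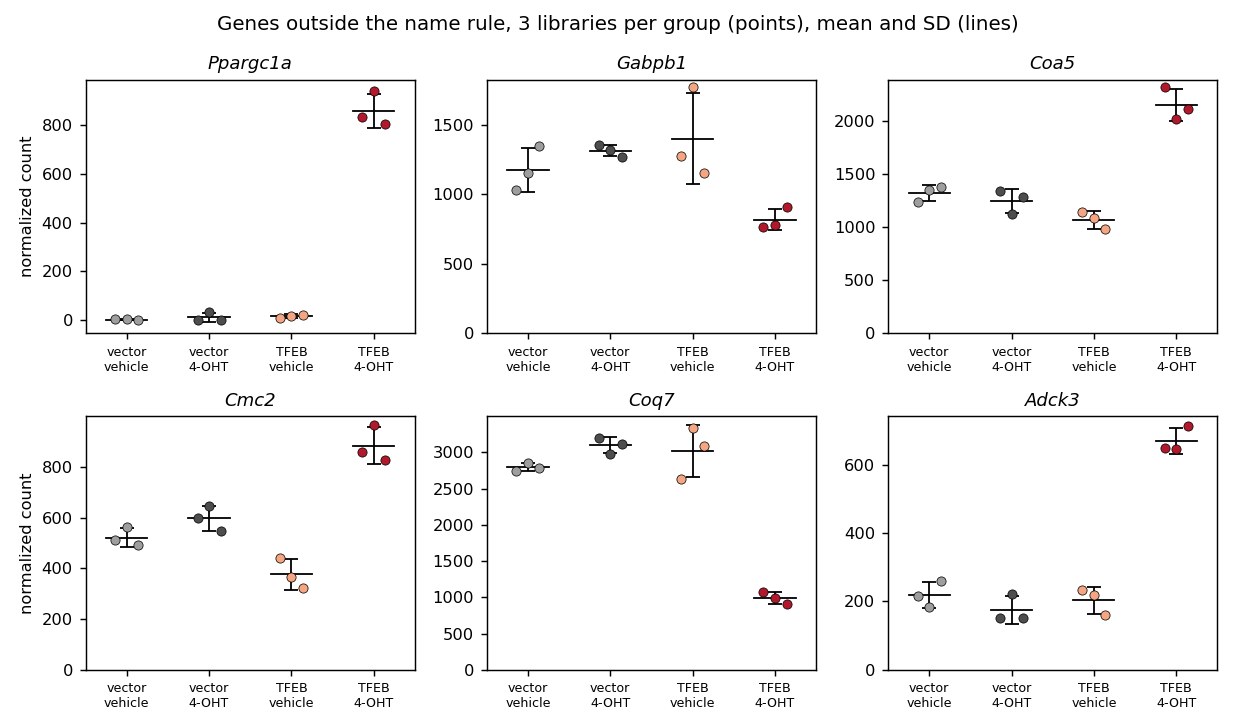
Normalized counts of 6 genes outside the name rule in the 4 groups: points are the 3 libraries of a group, long lines the mean and whiskers the SD, on linear axes. In TFEB cells in 4-OHT, Ppargc1a, Coa5, Cmc2 and Adck3 lie above and Gabpb1 and Coq7 below every other library.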

How the data were processed

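RNA-seq of 12 libraries in 4 groups of 3 was used, from 1 table of the series. The submitters' processing notes name build mm10 and the tools DESeq2 1.6.3, HTSeq 0.6.1 and STAR 2.5.3, without their roles. The signal the authors deposited is read counts divided by 1 size factor per library: every value was a whole multiple of 1 read (tolerance 0.001), so whole reads were recovered for the count tests. Values were tested with limma 3.58.1 (R 4.3.3) on log2(value + 1) with a variance trend, 1 mean per group over all 12 libraries, for the 13111 genes with at least 10 in at least 3 libraries. P-values were Benjamini-Hochberg adjusted over all of them, with 0.05 as the threshold, and a fold change is on the log2(value + 1) scale. The fit was tested on simulated data. Alternatives were edgeR 4.0.16 and DESeq2 1.42.0 on whole reads, other filters, scalings and models, and fewer libraries. Named genes were all members called in any comparison, core subunits, isoform pairs, extremes of each complex and called genes of the lists. Members and lists were chosen with earlier results of these data known. Promoters are from RefSeq (76 members matched), exons from GENCODE. Many of these genes have processed pseudogenes, and the handling of shared reads and of strand was not given in the sources used.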

Additional observations from a re-analysis of the deposited data

Results flagged for a closer look

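For 4 respiratory chain genes and 8 genes of the other lists, the effect of 4-OHT differed between TFEB and vector cells by the test of the difference itself, so these are given once more together. In log2, as the effect in TFEB cells minus that in vector cells, the values were 0.67 for Uqcr10, -1.53 for Cox7a1, -4.18 for Cox4i2 and -0.48 for Ndufs7. Among assembly factors outside the name rule, Coa5 had 1.10 (limma adjusted p = 7.94e-07), Cmc2 1.04 (limma adjusted p = 0.000249) and Ecsit -0.87 (limma adjusted p = 0.000324). In coenzyme Q synthesis, Coq7 had -1.75 (limma adjusted p = 1.02e-11) and Adck3 2.07 (limma adjusted p = 4.87e-06). Among regulators, Ppargc1a had 4.96 (limma adjusted p = 0.0141), Crtc2 0.58 (limma adjusted p = 0.00438) and Gabpb1 -0.92 (limma adjusted p = 0.000341). Of the genes with positive values, Uqcr10, Coa5, Cmc2, Adck3 and Crtc2 had lower means in TFEB than in vector cells in vehicle. Of those with negative values, Cox7a1, Ndufs7, Coq7 and Gabpb1 had higher ones. Part of each of these values thus came from the vehicle groups. The difference for Ppargc1a was lost without a filter on low values (0.0821), without a variance trend (0.1), with edgeR (0.467), with DESeq2 (0.567) and without TFEB 4-OHT library 3 (0.0517), and 1 vector library in 4-OHT had 30.8 where the other 2 had 0.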

How the results depend on the processing

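No single value changed sign while called. Counts of called genes moved by over 1.5 times in these settings. For 4-OHT in TFEB cells, the 11 higher became 6 without a variance trend, 6 with edgeR, 19 with array weights and 5 without the 3 gene-rich libraries (the library with most genes detected in each of vector 4-OHT, TFEB vehicle and TFEB 4-OHT), and the 8 lower became 5 without the trend and 13 with DESeq2. For the interaction, the 1 higher became 6 with array weights and 2 with DESeq2, and the 3 lower became 0 without the trend. Between the lines in vehicle, the 1 higher became 2 with a pseudocount of 10, a minimum of 50, array weights or DESeq2, 3 without the gene-rich libraries, and 0 without the trend, with only the groups compared or with edgeR, and the 1 lower became 0 without a filter, without the trend, with only the groups compared and without the gene-rich libraries. Between the lines in 4-OHT, the 11 higher became 6 without the trend, 4 with edgeR and 7 without the gene-rich libraries, and the 10 lower became 6 without the trend and 3 without the gene-rich libraries.

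Leaving out 1 library at a time gave 6 to 14 higher and 5 to 12 lower for 4-OHT in TFEB cells, 0 in vector cells, 1 to 3 and 2 to 4 for the interaction, 0 to 3 and 0 to 1 between the lines in vehicle, and 4 to 14 and 7 to 11 in 4-OHT. Calls that held in every alternative numbered 7 of 19, 1 of 4, 0 of 2 and 5 of 21 in the comparisons with calls. With a replicate block the counts were 10 and 8 in TFEB cells, 0 and 0 in vector cells, 1 and 3 for the interaction, 2 and 1 in vehicle and 13 and 10 in 4-OHT. Libraries of the same number correlated at -0.12 to 0.10 and others at -0.17 to 0.13, so no sign of pairing by number was seen. With 3 libraries per group this cannot show that those of the same number were handled apart. Low counts limit Cox4i2 and Cox6a2.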
